A study of Mus musculus with 15 samples.

Results

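Genes of the NF-kB transcription factor system were followed in MC38 tumours 24 h after an intratumoural injection. They are 10 of the 17712 genes measured and were chosen by name. The 5 subunits are Nfkb1, Nfkb2, Rel, Rela and Relb. The other 5 are grouped here as inhibitors. Nfkbia, Nfkbib, Nfkbie and Nfkbiz encode IkB alpha, IkB beta, IkB epsilon and IkB zeta. Tnfaip3 encodes the ubiquitin-editing enzyme A20. MC38 is a mouse colon carcinoma line, grown here under the skin of C57BL/6 mice and treated when tumours measured about 5 mm. The tumours received 100 µL of PBS with DMSO and glucose as vehicle (n = 3), 50 µg of BO-112 (n = 4), 100 µg of DMXAA (n = 4), or 50 µg of BO-112 together with 100 µg of DMXAA (n = 4). BO-112 carries poly I:C, a synthetic double-stranded RNA, on a polymer, and DMXAA activates mouse STING, a sensor pathway for cytosolic DNA. The labels name no transgene, deletion, age or sex, and all 4 groups share the tumour line and the mouse strain.

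In resting cells IkB proteins hold NF-kB dimers in the cytoplasm. Receptors for cytokines and microbial products activate the IKK kinases, which mark IkB for destruction, and the freed dimers move to the nucleus and switch on inflammatory genes. A second branch runs through the kinase NIK and the processing of the Nfkb2 product, and its main partner is RelB. Several inhibitors, among them Nfkbia, Nfkbie and Tnfaip3, are themselves NF-kB targets, so their transcripts are widely used as readouts of recent NF-kB activity. IkB zeta differs from the other IkB proteins in that it sits in the nucleus and is needed for a set of secondary response genes.

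The letters NF-kB binds can be seen in front of several members. In the RefSeq promoter table (build GRCm38.p6), 7 of the 10 members had a window, namely Nfkb2, Rel, Rela, Nfkbia, Nfkbib, Nfkbie and Tnfaip3, and Nfkb1, Relb and Nfkbiz had none. The 250 bases before each start were searched on both strands for the kappaB consensus, which is 3 G, a purine, any 2 bases, 2 pyrimidines and 2 C. It was found for 5 members, Nfkb2, Rel, Nfkbia, Nfkbie and Tnfaip3, and these letters were not in the windows of Rela and Nfkbib. Of all 32851 windows in the table, 7.25% held a match, and of all 27025 genes, 8.23% held one in any window. The matched bases are shown in capitals with up to 9 bases on each side, 5′ to 3′ on the strand of the gene, and bases are counted back from the start.
Nfkbia, chr12:55492658-55492685, minus strand, match from base 29 to base 20 before the start: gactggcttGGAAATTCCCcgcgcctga
Tnfaip3, chr10:19015517-19015544, minus strand, match from base 125 to base 116 before the start: actcacgcgGGGACACCCCggggcggga
Tnfaip3, chr10:19015411-19015431, minus strand, match from base 12 to base 3 before the start: atttccatcGGAAATCCCCct
Nfkbie, chr17:45555585-45555612, plus strand, match from base 106 to base 97 before the start: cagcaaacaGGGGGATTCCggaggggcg
Rel, chr11:23771042-23771070, minus strand, overlapping matches from base 92 to base 82 before the start: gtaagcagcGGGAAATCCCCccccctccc
Nfkb2, chr19:46304689-46304717, plus strand, overlapping matches from base 39 to base 29 before the start: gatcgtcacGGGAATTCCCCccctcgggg
Nfkb2, chr19:46304717-46304736, plus strand, match from base 11 to base 2 before the same start: gggccgaaaGGGGCTTTCCc
Nfkb2, chr19:46305450-46305477, plus strand, match from base 236 to base 227 before another start: ccgacggcaGGAATGTCCCcacaaaagc
Nfkb2, chr19:46305696-46305723, plus strand, match from base 225 to base 216 before another start: ggtattttcGGGACTTTCCtaagcagca
A match is a description of these letters only. The core of the interferon response element, searched as TTTC, any 2 bases and TTTC on either strand, was in none of the members' windows and in 2.98% of all windows.

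BO-112 raised most of these genes. Against vehicle, 7 of the 10 members were called higher at an adjusted p under 0.05 (limma, Benjamini-Hochberg over all genes), beside 7.64% of all genes called higher, and none was called lower. Of the inhibitors 5 of 5 passed, with a median log2 fold change of 0.98, and 2 of 5 subunits passed, with a median of 0.44. The difference between these lists was not tested, and the estimate for the subunit Relb, 0.98, was no smaller than those for Nfkbie, Nfkbiz and Nfkbib. The median over the 10 members was 0.91 and over all genes -0.04. In all 10 members every BO-112 tumour lay above every vehicle tumour, and 18.1% of all genes showed that separation. Levels are given as CPM (read counts scaled to the size of the library), changes as log2 fold changes with their standard error (SE). In bulk tumours a change in RNA per cell and a change in the share of a cell type cannot be told apart.

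**Figure D1:**
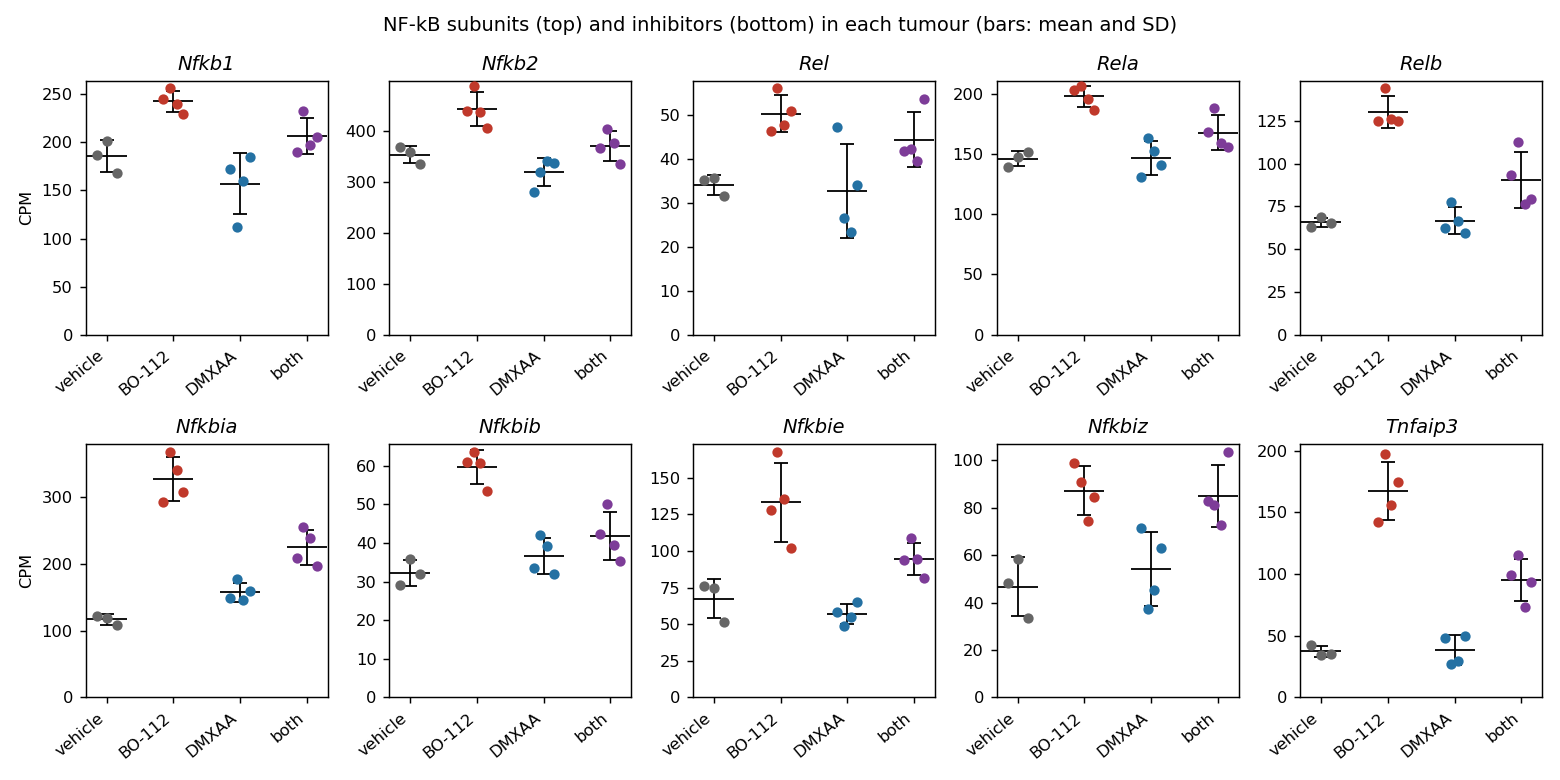
Level of each of the 10 NF-kB genes (CPM, one panel per gene, vertical axes from 0) in the 15 tumours by group. Points are tumours and bars are mean and SD. The 4 BO-112 tumours stand above the 3 vehicle tumours in every panel, and the mean with both agents lies between the means of those groups in every panel.

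Tnfaip3, whose product A20 removes activating ubiquitin chains from the IKK pathway, rose most. The vehicle tumours measured 42.6, 34.4 and 35.4 CPM and the BO-112 tumours 142, 197, 156 and 174 CPM. DMXAA tumours held 48.5, 27.2, 29.6 and 50.0 CPM, and tumours with both agents 99.1, 115, 73.5 and 93.3 CPM. Vehicle and DMXAA tumours overlapped, and tumours with both agents fell wholly between those and the BO-112 tumours. The log2 fold change with BO-112 was 2.15 ± 0.21 (SE, adjusted p = 1.14e-05, limma), or 4.45-fold.

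Nfkbia encodes the IkB that is remade fastest after NF-kB activation. Its vehicle levels were 122.8, 119 and 108 CPM, against 293, 367, 340.2 and 309 CPM after BO-112. The DMXAA tumours measured 149, 177, 145 and 159 CPM, and those with both agents 209, 255, 238 and 197 CPM. The 4 groups did not overlap anywhere: vehicle was lowest, then DMXAA, then both agents, then BO-112. BO-112 raised Nfkbia by 1.48 ± 0.12 on the log2 scale (SE, adjusted p = 2.20e-06, limma), or 2.79-fold.

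The remaining inhibitors changed by about 1 log2 unit each with BO-112. Nfkbie went from 75.9, 74.6 and 51.8 CPM in vehicle tumours to 128, 167, 135 and 102 CPM (log2 fold change 0.98 ± 0.17 SE, adjusted p = 0.00146, limma). Nfkbib, whose protein is released from NF-kB more slowly, went from 29.2, 35.9 and 31.9 CPM to 60.9, 63.4, 60.7 and 53.5 CPM (0.88 ± 0.13 SE, adjusted p = 0.000482, limma). Nfkbiz went from 48.2, 58.5 and 33.5 CPM to 98.8, 91.1, 74.4 and 84.7 CPM (0.93 ± 0.22 SE, adjusted p = 0.0116, limma). The call for Nfkbiz was lost without vehicle replicate 3, its lowest vehicle tumour (adjusted p = 0.0798, limma). Exons of Nfkbib share 14.5% of their bases with Ccer2 and 1.94% with Sirt2 on the opposite strand. The library kit keeps strand, but whether reads were counted by strand is not given in the sources used here.

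Among the subunits Relb, the partner of the processed Nfkb2 product, rose most. Vehicle tumours held 62.9, 68.6 and 65.6 CPM and BO-112 tumours 125, 144, 126 and 125 CPM, a log2 fold change of 0.98 ± 0.13 (SE, adjusted p = 0.000167, limma). Rela, the main activating subunit, measured 139, 147 and 152 CPM in vehicle tumours and 203, 206, 195 and 186 CPM after BO-112. That is 0.44 ± 0.10 on the log2 scale (SE, adjusted p = 0.00959, limma), and the call was lost without vehicle replicate 1 (adjusted p = 0.0536, limma). The difference in Rela was small, and its SE was less than that of Tnfaip3.

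The other 3 subunits were higher in every BO-112 tumour than in any vehicle tumour but did not pass the threshold. Nfkb1, the precursor of p50, ranged from 169 to 202 CPM in vehicle tumours and from 229.8 to 256 CPM after BO-112, with a log2 fold change of 0.39 ± 0.15 (SE, adjusted p = 0.0996, limma). Nfkb2, the precursor of p52, ranged from 335 to 368 CPM and from 406 to 487 CPM (0.32 ± 0.11 SE, adjusted p = 0.0631, limma). Rel, the lymphoid and myeloid subunit c-Rel, ranged from 31.5 to 35.7 CPM and from 46.4 to 56.0 CPM (0.56 ± 0.19 SE, adjusted p = 0.0710, limma). All 3 passed when the fit held only the vehicle and BO-112 tumours, or when DMXAA replicates 2 and 3 were left out, so that 10 of 10 members were then called, beside 4320 and 4439 genes in all against 2116. Under scaling by total count alone 5 of 10 were called, and Rela (adjusted p = 0.0567, limma) and Nfkbiz (adjusted p = 0.0518, limma) were lost. Nfkb2 exons share 11.6% of their bases with the long non-coding gene AC114539.1 and 6.52% with Psd, both on the opposite strand.

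In the fit of all libraries, DMXAA alone left most of the system near the vehicle level. None of the 10 members passed the adjusted threshold (limma), beside 1.08% of all genes called higher and 0.169% called lower. At an unadjusted p under 0.05, 1 member was higher and 0 were lower, beside 9.98% and 8.11% of all genes. No member passed in any of the 10 other settings, a limma-voom fit of the recovered reads included, nor when any of the 15 libraries was left out. The member at the unadjusted threshold was Nfkbia, with a log2 fold change of 0.43 ± 0.12 (SE, adjusted p = 0.0969, limma). It was also the only member whose DMXAA tumours all lay above the vehicle tumours, a separation seen for 6.52% of all genes.

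The rest ranged from -0.26 ± 0.15 (SE) for Nfkb1 to 0.21 ± 0.22 (SE) for Nfkbiz, and the median over the 10 members was 0.0029 against 0.0145 over all genes. For Tnfaip3 the log2 difference was 0.0030, with a 95% interval from -0.45 to 0.46. For Rela it was 0.0029, with an interval from -0.21 to 0.22, and for Relb 0.01, from -0.27 to 0.29. The changes of these 3 genes with BO-112 lie outside the intervals. Without DMXAA replicates 2 and 3, described below, the DMXAA difference was 0.40 for Tnfaip3 and 0.56 for Nfkbiz, neither of them called. The difference between the agents was tested directly: 10 of 10 members were higher with BO-112 than with DMXAA, from 0.43 ± 0.09 for Rela to 2.15 ± 0.20 (SE) for Tnfaip3, beside 11.2% of all genes. Without the 4 libraries high in skeletal muscle genes described below, 5 of the 10 passed, with 791 genes called in all against 3783. Without DMXAA replicates 2 and 3, 8 passed: Rel was then at 0.32 (adjusted p = 0.154, limma) against 0.67, and Nfkbiz at 0.37 (adjusted p = 0.237, limma) against 0.72. Both were also lost in a fit of these groups alone.

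**Figure D2:**
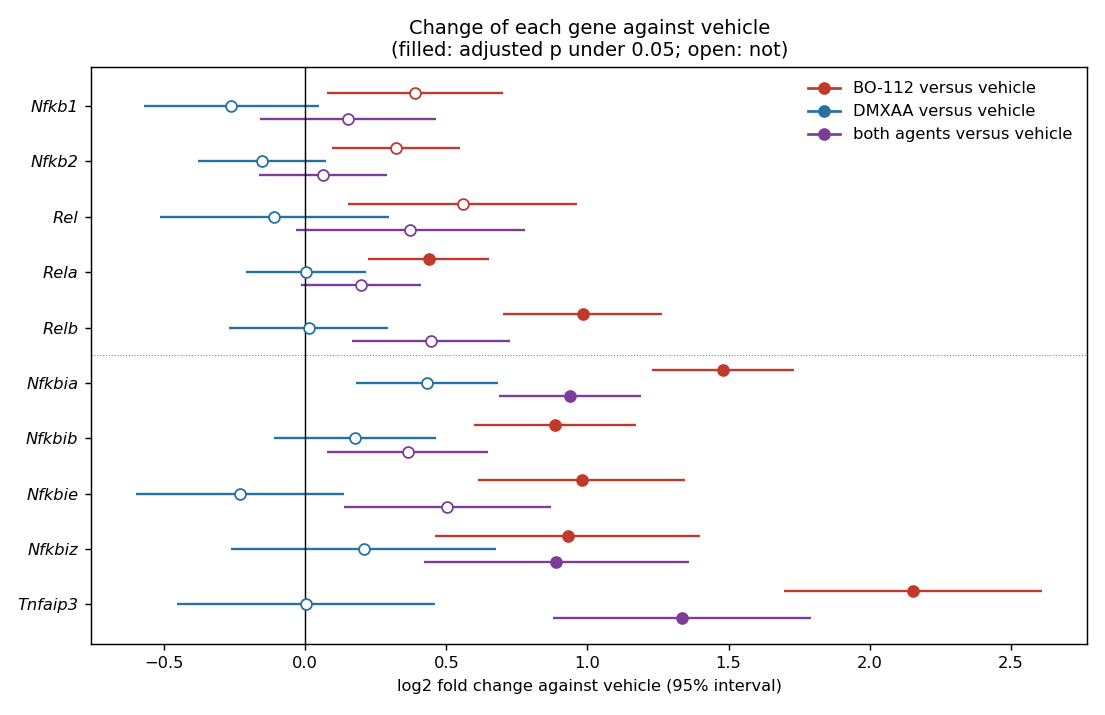
Log2 fold change of each gene against vehicle (horizontal axis) after BO-112, DMXAA or both agents, with 95% intervals. Filled points have an adjusted p under 0.05. Every red point (BO-112) lies right of 0, and the blue points (DMXAA) scatter around 0 and none is filled. The 3 filled purple points (both agents) are Tnfaip3, Nfkbia and Nfkbiz.

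The DMXAA libraries differed among themselves by transcript length. In DMXAA replicates 2 and 3 the 10% of genes with the shortest transcripts stood 0.69 and 0.50 log2 units above the other libraries at the median, and the 10% with the longest 0.64 and 0.41 units below (medians -0.64 and -0.41). Replicates 1 and 4 were within 0.04 for both. The members followed length in part. Against the mean of replicates 1 and 4, DMXAA replicate 2 was higher in Nfkbia by 0.20 and in Nfkbib by 0.36 log2 units, which have 1.61 and 2.17 kb of annotated exon. It differed by -0.86 in Tnfaip3, -0.60 in Rel and -0.67 in Nfkb1, which have 7.23, 7.47 and 12.1 kb. Nfkbie broke that order, at -0.34 with 3.05 kb, while the longer Rela, Relb and Nfkb2 were at 0.27, 0.35 and 0.06. In replicate 3 Nfkbia, the shortest, was at -0.08, and Nfkb1, the longest, at -0.16, against -0.74 for Tnfaip3 and -0.78 for Rel. Tnfaip3 measured 27.2 and 29.6 CPM in those libraries against 48.5 and 50.0 CPM in the others, and Rel 26.5 and 23.3 CPM against 47.2 and 34.0 CPM. The same libraries had the lower neutrophil marker sums, 37.3 and 52.9 CPM against 145 and 146 CPM. For DMXAA against vehicle, no member passed without those libraries, and none passed with the length trend removed.

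**Figure D3:**
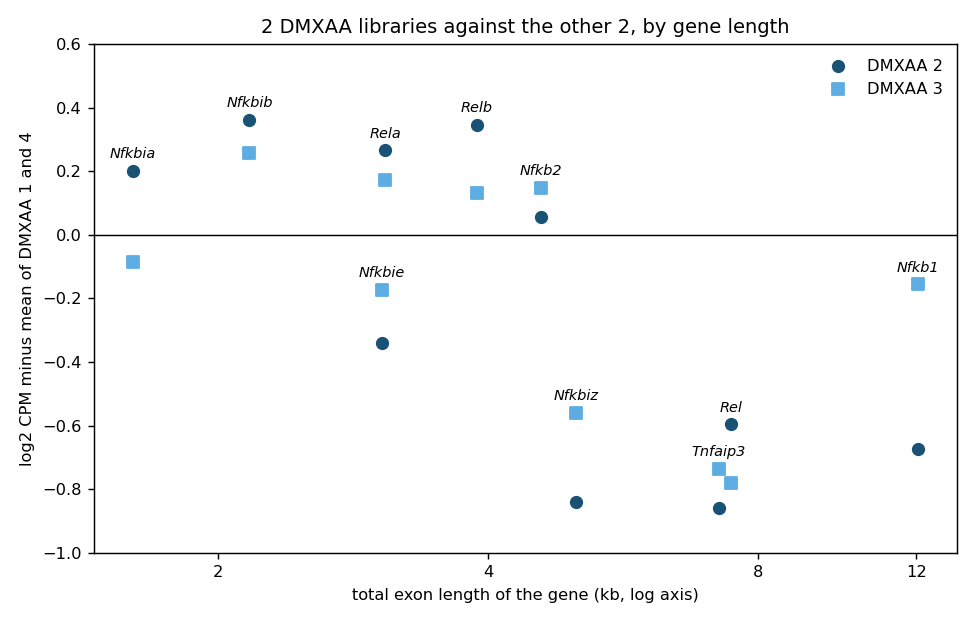
Log2 difference of DMXAA replicates 2 and 3 from the mean of DMXAA replicates 1 and 4 for each member, against the exon length of the gene (kb, log axis). The 4 longest members lie below 0 in both libraries, and Nfkbib, Rela, Relb and Nfkb2 lie above 0.

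With both agents fewer members passed than with BO-112. Against vehicle, 3 of 10 members were called higher, beside 2.49% of all genes: Tnfaip3 by 1.33 ± 0.21 (SE, adjusted p = 0.00215, limma), Nfkbia by 0.94 ± 0.12 (SE, adjusted p = 0.000342, limma) and Nfkbiz by 0.89 ± 0.22 (SE, adjusted p = 0.0427, limma). All 10 differences were positive, with a median of 0.41 against -0.0073 over all genes. In 7 members the groups did not overlap, beside 9.92% of all genes. Calls for Tnfaip3 and Nfkbia held when any of the 15 libraries was left out. The Nfkbiz call held in 5 of those 15 fits and was lost in the limma-voom fit (adjusted p = 0.0503). It was also lost under scaling by total count alone (adjusted p = 0.142, limma). The 3 called members are inhibitors, but the estimate for the subunit Relb, 0.45 ± 0.13 (SE, adjusted p = 0.103, limma), exceeded that for the inhibitor Nfkbib, 0.36 ± 0.13 (SE, adjusted p = 0.244, limma). Relb passed with library quality weights, with a replicate block and without DMXAA replicates 2 and 3. Nfkbib passed in 2 of these.

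Nfkbiz was the member least altered by adding DMXAA to BO-112. Its 4 tumours with both agents held 82.7, 81.0, 73.0 and 104 CPM, against 98.8, 91.1, 74.4 and 84.7 CPM with BO-112 alone, and the groups overlapped. On the log2 scale, the change with both agents was 95.7% of the change with BO-112 for Nfkbiz, 66.7% for Rel, 63.4% for Nfkbia and 61.9% for Tnfaip3. It was 51.3% for Nfkbie, 45.4% for Relb, 45.2% for Rela, 41.0% for Nfkbib, 38.95% for Nfkb1 and 19.9% for Nfkb2. The 2 changes share their vehicle tumours, and these shares carry no test.

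Tested directly, tumours with both agents were lower than BO-112 tumours in all 10 members, but none passed the adjusted threshold (limma, nor with limma-voom). The median difference was -0.37 over the 10 members and 0.01 over all genes. In this comparison 0% of all genes were called lower. At an unadjusted p under 0.05, 7 members were lower, beside 4.54% of all genes, and in 5 members every tumour with both agents lay below every BO-112 tumour, beside 6.11% of all genes. Those 5 were Nfkb2, Relb, Nfkbia, Nfkbib and Tnfaip3. Tnfaip3 differed by -0.82 ± 0.20 (SE, adjusted p = 0.156, limma), Nfkbia by -0.54 ± 0.11 (SE, adjusted p = 0.139, limma), Relb by -0.54 ± 0.12 (SE, adjusted p = 0.139, limma) and Nfkbib by -0.52 ± 0.12 (SE, adjusted p = 0.154, limma). Nfkbiz differed by -0.04, with a 95% interval from -0.47 to 0.39. The first 4 of these passed with library quality weights, in a fit of these groups alone, and without DMXAA replicates 2 and 3, fits that called 313, 362 and 206 of all genes. Without DMXAA replicate 2 alone, Nfkbia passed, 1 of 32 genes called.

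Relb and Nfkbib show the pattern at lower levels. Relb measured 93.7, 112, 76.5 and 79.5 CPM with both agents, all above the vehicle tumours and all below the BO-112 tumours. Nfkbib measured 42.2, 50.1, 39.4 and 35.3 CPM, which overlapped vehicle at its lower end. Nfkbie, at 94.0, 109, 94.7 and 81.5 CPM, overlapped BO-112 and not vehicle.

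Compared with DMXAA alone, tumours with both agents were higher in 3 called members, beside 0.717% of all genes: Tnfaip3 by 1.33 ± 0.20 (SE, adjusted p = 0.0114, limma), Nfkbie by 0.73 ± 0.16 (SE, adjusted p = 0.0436, limma) and Nfkbia by 0.51 ± 0.11 (SE, adjusted p = 0.0414, limma). The groups did not overlap in 5 members, beside 4.54% of all genes. These calls depended on single libraries, and between 0 and 5 members passed when one was left out. The count over all genes moved with it: the fits with 5 members, without DMXAA replicate 1 or 4, called 1765 and 1504 genes. Those with 0 members, without DMXAA replicate 3 or without replicate 1 or 2 of both agents, called 5, 0 and 0 genes. Without DMXAA replicates 2 and 3 no member passed, with 7 genes called.

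The interaction asks whether DMXAA changed a gene differently in the presence of BO-112. For Nfkbia it did: DMXAA alone went with 0.43 log2 units more, and DMXAA added to BO-112 with 0.54 units less, so the interaction was -0.97 ± 0.16 (SE, adjusted p = 0.0118, limma). Nfkbia was the only member to pass, 1 of 10, beside 1.15% of all genes with a negative interaction called. The call held when any of the 15 libraries was left out and in 8 of 9 other settings. It was lost without the 4 libraries high in skeletal muscle genes, where the value was -1.14 (adjusted p = 0.0721, limma). The interaction was negative in 9 of 10 members, among them Tnfaip3 at -0.82 ± 0.29 (SE, adjusted p = 0.205, limma), Nfkbib at -0.70 ± 0.18 (SE, adjusted p = 0.0752, limma) and Relb at -0.55 ± 0.18 (SE, adjusted p = 0.166, limma). Its median was -0.25 over the 10 members and 0.02 over all genes. Tnfaip3 passed with library quality weights and without DMXAA replicates 2 and 3. Nfkbib passed with a replicate block and with the length trend removed. For Nfkb1 the interaction was 0.02, with a 95% interval from -0.40 to 0.45.

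**Figure D4:**
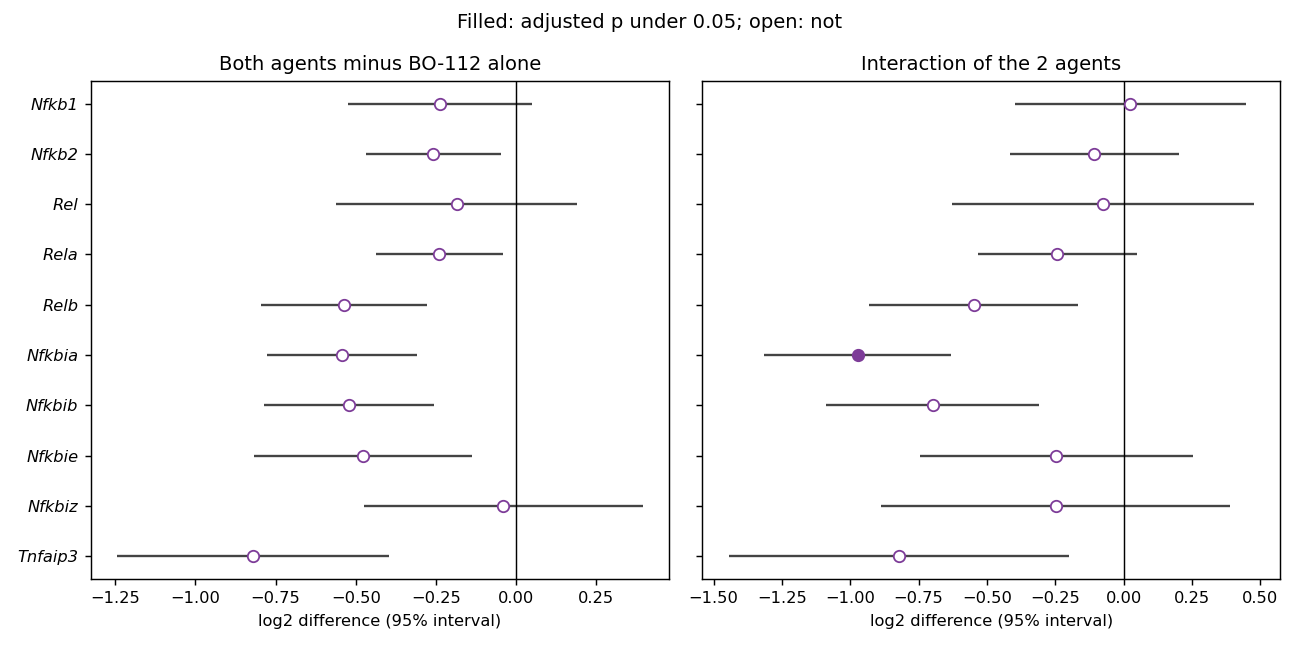
Differences on the log2 scale (horizontal axes) for each gene: both agents minus BO-112, and the interaction, with 95% intervals. Filled points have an adjusted p under 0.05. Only the Nfkbia interaction, at -0.97, is filled. Nfkbiz lies at -0.04 for both agents minus BO-112.

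The order of the transcripts by level per kb of exon shifted with treatment. In vehicle tumours Nfkb2 (77.1 CPM per kb) and Nfkbia (72.6 CPM per kb) led and overlapped, followed by Rela (47.5 CPM per kb) and Nfkbie (22.2 CPM per kb), which did not overlap their higher neighbour. Relb, Nfkb1 and Nfkbib lay close together at 16.9, 15.4 and 14.9 CPM per kb with overlapping ranges. Nfkbiz (9.31 CPM per kb) stood clear of its neighbours, and Tnfaip3 (5.19 CPM per kb) and Rel (4.57 CPM per kb) overlapped at the bottom. After BO-112 Nfkbia, at 203 CPM per kb, stood well above Nfkb2 at 96.5 CPM per kb with no overlap, and Tnfaip3 moved up to 23.2 CPM per kb, among Nfkbib and Nfkb1. Rel stayed last in all 4 groups. Lengths are the union of annotated exons, which makes genes with many isoforms look lower.

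The balance of inhibitor to subunit transcripts can be read within a library. The ratio of Nfkbia to Rela, both per kb, was 1.53 ± 0.16 (SD, n = 3) in vehicle tumours, 3.16 ± 0.29 (SD, n = 4) after BO-112, 2.06 ± 0.17 (SD, n = 4) after DMXAA and 2.56 ± 0.22 (SD, n = 4) with both. It ran from 1.36 to 1.68 in vehicle tumours and from 1.82 to 2.18 in DMXAA tumours, and this difference was not tested. For Tnfaip3 to Rela the ratio was 0.110 ± 0.018 (SD, n = 3), 0.361 ± 0.051 (SD, n = 4), 0.116 ± 0.045 (SD, n = 4) and 0.241 ± 0.030 (SD, n = 4) in the same order of groups. In that order the mean ratio to Rela was 0.314, 0.427, 0.353 and 0.351 for Nfkbib. It was 0.469, 0.677, 0.397 and 0.569 for Nfkbie, and 0.197, 0.270, 0.233 and 0.313 for Nfkbiz. For Tnfaip3, Nfkbib, Nfkbie and Nfkbiz the vehicle and DMXAA ranges overlapped. The ratio of the 2 precursors, Nfkb2 to Nfkb1, was 5.03 ± 0.31 (SD, n = 3) in vehicle and 4.79 ± 0.15 (SD, n = 4) in BO-112 tumours, and the groups overlapped.

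Members also differed in how alike their patterns were. Likeness was measured as the root mean square difference of log2 CPM over the 15 libraries after each gene was set to its own mean, with smaller values closer. It reflects the size of a gene's changes as well as their shape, and the SD over libraries was 0.21 for Rela and Nfkb2 and 0.99 for Tnfaip3. Rela and Nfkb2 were the closest pair (0.098), then Relb and Nfkbib (0.131). Tnfaip3 was the farthest from every other member, and its nearest was Nfkbia at 0.51. Among 12418 genes with a mean of at least 1 CPM, those most like Tnfaip3 were AW011738 (0.146), Ddx60 (0.222), Acsl1 (0.222), Ifi203 (0.252) and Ass1 (0.264). The genes nearest to Nfkbia were Ttc39c (0.135), Vcam1 (0.147), Casp4 (0.148), Parp12 (0.156) and Trim12a (0.157). For Nfkbie they were Trim21 (0.167), Dennd6b (0.168), Gsap (0.174), Rhbdf2 (0.175) and Birc3 (0.181). All points share the same 15 libraries and their depths.

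Upstream of the members, a minority of the kinase complex genes changed. Of 27 genes for the IKK complex and its adaptors, 7 were higher and 1 lower with BO-112 (median log2 fold change 0.28). Over all 17712 genes, 7.64% were called higher and 763 genes lower. Malt1, a protease of the CARD pathway, rose by 1.28, Rnf31, the ubiquitin ligase HOIP, by 1.08 and Traf6 by 0.76 log2 units, and the adaptor Card9 fell by 0.85. The kinase genes Ikbkb (0.43 ± 0.12 SE, adjusted p = 0.0314, limma) and Chuk (0.29 ± 0.09 SE, adjusted p = 0.0441, limma) passed. The scaffold Ikbkg was at 0.29 ± 0.15 (SE, adjusted p = 0.257, limma). Map3k14, the gene for NIK, was at -0.31 ± 0.16 (SE, adjusted p = 0.245, limma). With DMXAA and with both agents no gene of this list passed (limma), beside 1.08% and 2.49% of all genes called higher. At an unadjusted p under 0.05 there were 1 higher and 1 lower with DMXAA, beside 9.98% and 8.11% of all genes. With both agents there were 4 higher and 1 lower of 27, beside 7.86% of all genes higher and 3.62% lower.

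The IKK-related kinases and their scaffolds, which serve antiviral signalling, were higher in 4 of 5 genes with BO-112 and in 3 of 5 with both agents. Over all genes, 7.64% and 2.49% were called higher. Tank rose by 1.17 and 0.72 log2 units in these comparisons, Ikbke by 1.34 and 1.05, and Azi2 by 0.77 and 0.46. Tbk1 rose by 0.52 with BO-112 and was at 0.34 ± 0.10 (SE, adjusted p = 0.0945, limma) with both.

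Other inhibitors and deubiquitinases of the pathway also rose in part. Of 18 measured, 7 were higher and 1 lower with BO-112 (median 0.32), and 4 were higher with both agents. Over all genes, 7.64% were called higher with BO-112 and 2.49% with both agents. Irak3, a brake on Toll-like receptor signalling, rose by 1.96 with BO-112 and also passed with both (adjusted p = 0.00855, limma). Tnip1, which works with A20, rose by 1.47 and 0.78, and Traf1 by 1.05 and 0.48. Bcl3, an atypical nuclear IkB, rose by 0.40 with BO-112 (adjusted p = 0.0375, limma). Pdlim2, a nuclear ligase for RelA, fell by 0.62. The deubiquitinase Cyld was at 0.11 ± 0.10 (SE, adjusted p = 0.529, limma).

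Ligands and receptors that feed the pathway were higher in part. Of 11 ligands measured, 5 were called higher with BO-112 and 1 with both agents, which was Tnf. Over all genes, 7.64% and 2.49% were called higher in these comparisons. Tnf rose from 7.23 ± 4.30 CPM (SD, n = 3) in vehicle tumours to 34.4 ± 10.7 CPM (SD, n = 4) with BO-112 and 27.0 ± 3.0 CPM (SD, n = 4) with both. It was 16.4 ± 1.4 CPM (SD, n = 4) with DMXAA, where the log2 difference was 1.37 ± 0.34 (SE, adjusted p = 0.0678, limma). Il1a rose by 3.42 and Il1b by 1.78 with BO-112. Of 20 receptors measured, 9 were called higher with BO-112 and 7 with both agents, beside 7.64% and 2.49% of all genes. Those with the smallest adjusted p for BO-112 were Tlr2 (1.97 and 1.40), the RNA sensor Ifih1 (1.81 and 1.19) and Tlr3, a receptor for double-stranded RNA (1.45 and 1.00).

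Downstream, 21 of 30 known NF-kB target genes were higher with BO-112, 14 with both agents and 7 with DMXAA, with which Mmp9 was lower (-0.92 ± 0.18 SE, adjusted p = 0.0258, limma). Over all genes, 7.64% were called higher with BO-112, 2.49% with both agents and 1.08% with DMXAA. The median log2 fold changes of the target genes were 1.53, 0.89 and 0.61. The chemokine Ccl5 rose by 4.52, 3.44 and 1.88, and Cxcl1 by 2.22, 2.21 and 1.17, with BO-112, both agents and DMXAA. Sod2, the mitochondrial superoxide dismutase, rose by 1.96 with BO-112 and by 1.22 with both, and was at 0.58 ± 0.19 (SE, adjusted p = 0.177, limma) with DMXAA. Birc3, an inhibitor of apoptosis, rose by 1.00 with BO-112 and was at -0.10 ± 0.14 (SE, adjusted p = 0.690, limma) with DMXAA. A negative interaction was called for 5 of the 30, beside 1.15% of all genes, and for Ccl5 it was -2.95 ± 0.49 (SE, adjusted p = 0.0119, limma). The target list holds Tnip1 and Traf1, which are also among the inhibitors above. It also holds Il6, Ccl2, Csf2 and Csf3, which recur in the IkB zeta list below, so these lists are not separate sets.

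Of 8 genes known to need IkB zeta, 5 were higher with BO-112, 4 with both agents and 2 with DMXAA. The shares of all genes called higher were 7.64%, 2.49% and 1.08%. Lcn2, a siderophore-binding protein abundant in neutrophils, rose from 0.34 ± 0.27 CPM (SD, n = 3) in vehicle tumours to 21.6 ± 25.0 CPM with BO-112, 19.8 ± 14.7 CPM with DMXAA and 29.7 ± 7.5 CPM with both (SD, n = 4 each). The rise with DMXAA passed for Lcn2 (adjusted p = 0.00227, limma) and not for Nfkbiz. Il12b, a subunit of interleukin 12, rose by 3.48 with BO-112 and 2.23 with both, and was at -0.28 ± 0.36 (SE, adjusted p = 0.662, limma) with DMXAA. Il6 rose by 3.31 with BO-112 and by 2.72 with both, and was at 1.67 ± 0.44 (SE, adjusted p = 0.0845, limma) with DMXAA.

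**Figure D5:**
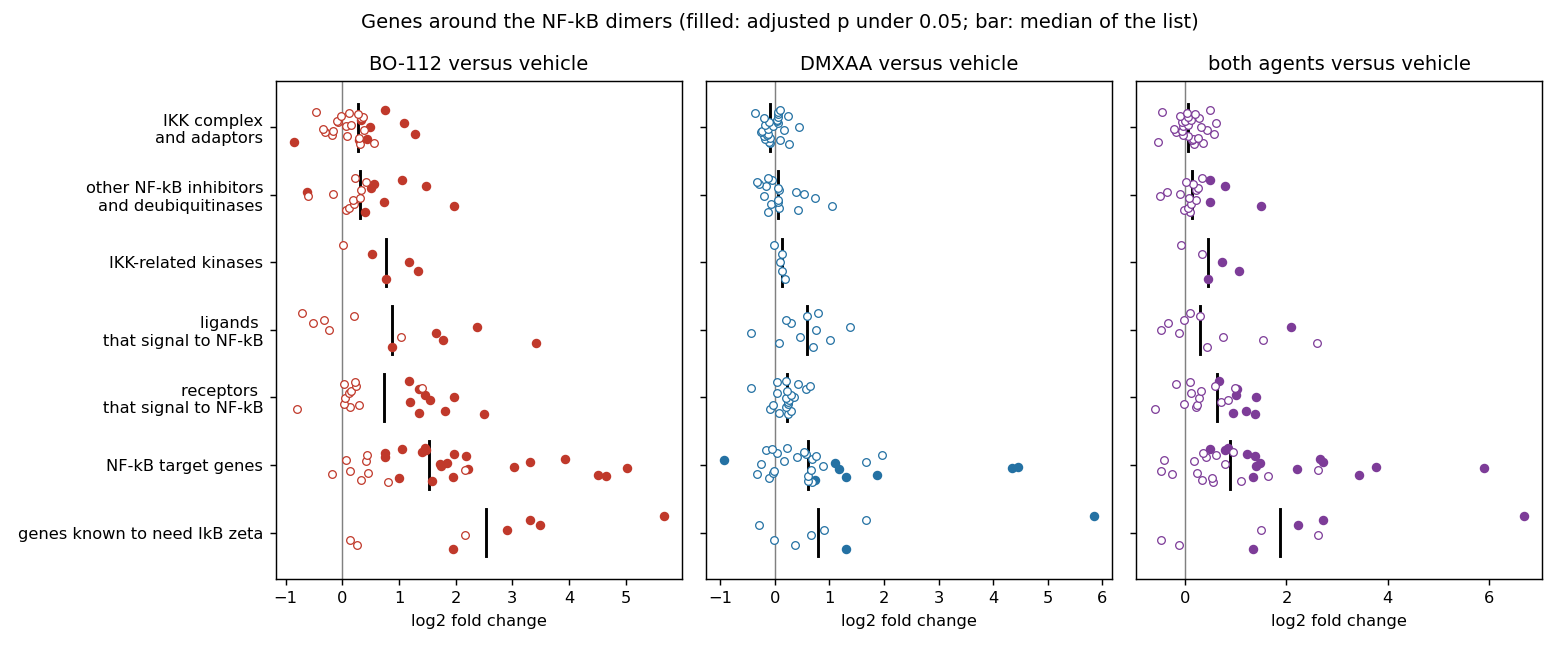
Log2 fold change against vehicle (horizontal axes) of each measured gene of the pathway lists after BO-112, DMXAA and both agents. Points are genes, filled where the adjusted p is under 0.05, and bars are list medians. The bars of the NF-kB target genes stand at 1.53 with BO-112, 0.89 with both and 0.61 with DMXAA, and the IKK complex and adaptors at 0.28, 0.05 and -0.08.

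Markers of other cells moved with some of these groups. The summed level of 8 measured neutrophil markers of 10 listed was 29.4 to 40.3 CPM in vehicle tumours, 76.3 to 117 CPM after BO-112, 37.3 to 146 CPM after DMXAA and 71.1 to 231 CPM with both. Much of it was Csf3r, which averaged 30.0, 69.1, 48.5 and 60.0 CPM in these groups, and 6 of the 8 averaged under 1 CPM in vehicle tumours. In DMXAA replicates 1 and 4, where the neutrophil sum was 145 and 146 CPM, Nfkbiz (71.5 and 62.9 CPM) and Tnfaip3 (48.5 and 50.0 CPM) were also higher than in replicates 2 and 3. Replicates 2 and 3 are also the libraries low in long transcripts. Among BO-112 tumours, replicate 1 had the highest neutrophil sum (117 CPM), the highest Nfkbiz (98.8 CPM) and the lowest Tnfaip3 (142 CPM). With both agents, replicate 4 had the highest sum (231 CPM) and the highest Nfkbiz (104 CPM). The highest Tnfaip3 with both agents (115 CPM) was in replicate 2, at a sum of 79.3 CPM. The 10 macrophage markers summed to 2692 to 3354 CPM in vehicle and 2877 to 3387 CPM in BO-112 tumours, but went opposite ways with BO-112, with 1 called higher and 3 lower. Fcgr1 averaged 98.1 CPM in vehicle and 276 CPM in BO-112 tumours, and Mrc1 253 and 34.5 CPM. The 8 endothelial markers summed to 155 to 189 CPM in vehicle and 244 to 287 CPM in BO-112 tumours, with 1 called higher. Much of that difference was Kdr, which averaged 20.9 and 85.6 CPM. Cdh5, Emcn, Cldn5, Egfl7 and Esam also averaged higher with BO-112. Pecam1 was nearly level, at 64.3 and 65.2 CPM, and Tek went lower, at 3.83 and 2.54 CPM. Of 8 dendritic cell markers 1 was called higher with BO-112, and the list median was 0.14 log2 units. Ccr7 averaged 10.7 CPM in vehicle and 46.5 CPM in BO-112 tumours, and Fscn1 377 and 402 CPM. Clec9a (4.69 and 2.15 CPM), Cd209a (2.94 and 0.15 CPM) and Siglech (0.84 and 0.63 CPM) went the other way. Of 10 T cell markers 0 were called with BO-112 against vehicle. Against DMXAA 5 of them were lower with BO-112 (median -0.82 log2 units), beside 1807 genes lower in all. Of 8 fibroblast markers 1 was higher with BO-112 against vehicle and 2 against DMXAA. Of 6 measured B cell markers 1 was higher in each comparison. Over all genes, 7.64% and 11.2% were called higher. Skeletal muscle genes were high in vehicle replicate 2, BO-112 replicate 1 and DMXAA replicates 1 and 3, at 170.4, 551, 929.6 and 476 CPM in sum, and at most 17.7 CPM in the other 11 libraries. The part of these cells in the results was not tested. Without those 4 libraries, the BO-112 calls for Relb, Nfkbiz and all the other inhibitors stood, and that for Rela was lost at a log2 fold change of 0.43 (adjusted p = 0.0880, limma) against 0.44 with all libraries. Of 10 colon epithelial markers 5 were measured, and their sum, mostly Cdh1, was 31.2 to 87.5 CPM in vehicle and 8.93 to 13.6 CPM in BO-112 tumours. Of these 5, 2 were called lower and 1 higher with BO-112. Krt19 and Krt20 averaged under 0.2 CPM in vehicle tumours and more with BO-112, at 0.67 and 0.49 CPM. These markers identify the MC38 cells poorly. Libraries held 12725316 to 19660511 reads, and the labels call the tumours biological replicates.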

How the data were processed

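RNA of 15 tumours was sequenced as stranded mRNA libraries with paired reads of 150 bp, per the labels' protocols. STAR, edgeR, limma and genome build mm39 are named in the submitters' processing notes. The table used here was deposited as log2 CPM of 17712 genes, with 0.5 reads added before the log and scaling factors from 0.85 to 1.08. Reads recovered from it were whole for 100% of values (tolerance 1e-06), which gave the CPM levels. The raw count table names no samples, so its 15 columns were not used, and the count test planned for it was not run. Symbols (17636 genes) and exon lengths came from GENCODE M21, on another build than the authors'. Promoter sequence came from RefSeq on GRCm38.p6.

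A model with 4 group means was fitted to all genes and libraries with limma 3.58.1 in R 4.3.3 (trended, robust empirical Bayes), and p-values were adjusted by Benjamini-Hochberg over all genes of a comparison. It was tested on simulated data. All 10 members are described. From each pathway list the text names the 3 genes with the smallest adjusted p for BO-112 against vehicle, the first in the other direction, and a fixed panel. For the 3 members varying most, the 5 most similar genes are named. Mmp9 was chosen after its value was seen. The members and lists were chosen with earlier results of these data known. Alternatives were other scalings, a low-value filter, limma-voom, library weights, a replicate block, smaller sets of libraries and removal of the length trend.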

Additional observations from a re-analysis of the deposited data

Results flagged for a closer look

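Of 30 sets of 4 tumours (10 genes in 3 groups), 1 held a tumour far from the others: Relb in BO-112 replicate 2, at 144 CPM against 125, 126 and 125 CPM. On the log2 scale its gap to the nearest tumour was 0.907 of the group's range. That is above Dixon's 95% critical value for 4 samples, which chance passes in about 1 of 20 groups. The Relb call for BO-112 against vehicle held without that tumour.

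Nfkbia responded to DMXAA differently with and without BO-112. The interaction was -0.97 on the log2 scale (adjusted p = 0.0118, limma).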

How the results depend on the processing

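Of 1740 alternative values for the 70 member changes, 1583 kept direction and side of the threshold, 70 lost and 47 gained a call, and 40 changed sign, none of them called. Scaling by total count alone moved the median of all genes from -0.04 to -0.20 for BO-112 against vehicle, with 932 genes higher and 1807 lower against 1353 and 763, and from 0.02 to 0.23 for the interaction. Under it DMXAA against vehicle was -0.12 for Rela, -0.11 for Relb and -0.12 for Tnfaip3. Both agents against vehicle was -0.0055 for Nfkb2, both against BO-112 was 0.048 for Nfkbiz, and the interaction was 0.11 for Nfkb2 and 0.14 for Rel. For DMXAA against vehicle, library weights gave 0.050 for Rel, -0.054 for Rela and -0.085 for Relb, the fit without DMXAA replicates 2 and 3 gave 0.23, -0.11 and -0.11, and removal of the length trend gave 0.012, -0.070 and -0.00612. For the Nfkb1 interaction these gave -0.12, -0.18 and -0.17. Without the muscle-rich libraries Tnfaip3 was -0.074 with DMXAA, and Nfkbiz was 0.022 for both against BO-112.

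Leaving out single libraries spanned, for DMXAA against vehicle, -0.30 to 0.036 for Rel, -0.049 to 0.058 for Rela, -0.064 to 0.064 for Relb, -0.014 to 0.39 for Nfkbiz and -0.14 to 0.16 for Tnfaip3. It spanned -0.14 to 0.029 for Nfkbiz in both against BO-112, and for the interaction -0.13 to 0.11 for Nfkb1 and -0.22 to 0.12 for Rel. Called members ranged from 0 to 1 for both against BO-112, 0 to 5 for both against DMXAA and 1 to 2 for the interaction.

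Both agents against vehicle called 5 members with library weights (1403 genes in all against 473). Both against BO-112 called 4 with library weights, in a fit of these groups alone and without DMXAA replicates 2 and 3 (313, 362 and 206 genes against 0). Both against DMXAA called 0 in a fit of these groups alone, without the muscle-rich libraries and without DMXAA replicates 2 and 3 (4, 1 and 7 genes against 157). BO-112 against DMXAA called 5 without the muscle-rich libraries (791 genes against 3783). The interaction called 2 with library weights, without DMXAA replicates 2 and 3 and without the length trend (645, 710 and 345 genes against 239), and 0 without the muscle-rich libraries (36 genes). The causes were not tested.

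Replicate numbers did not pair tumours (mean correlation of same-numbered deviations 0.0152 over 21 pairs, from -0.212 to 0.255, against -0.00509 over 63 others). With the replicate block, 5 members were called for both against vehicle and 2 for the interaction (471 and 283 genes), and Tnfaip3 with DMXAA was -0.050.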
